A study of Homo sapiens with 6 samples.

Results

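The regions described here are the NeuroD1 binding regions of the small cell lung cancer line H82 that were listed neither under NeuroD1 in the line H524 nor under the promoter mark H3K4me3 in either line. They were chosen by position alone. An H82 NeuroD1 region was kept when it shared no base with any H524 NeuroD1 region and none with any H3K4me3 region of H82 or H524. This left 1328 regions of the 3854 in the H82 NeuroD1 list (34.5%, exact Clopper-Pearson 95% interval 33.0 to 36.0), covering 577 kb. They are called H82-only unmarked regions below, where unmarked means without a listed H3K4me3 region.

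Both lines were untreated established cell lines of human small cell lung cancer, grown in RPMI medium with fetal bovine serum. Chromatin immunoprecipitation sequencing was made with 1 library per line for NeuroD1, 1 for H3K4me3 and 1 for input without antibody. The 4 antibody libraries gave the peak lists used here, with coordinates in build hg19. With 1 library per group there is no spread between replicates, so intervals cover counting error within these lists only and no p-value is given. Neighbouring regions share a library and often a locus, which makes these intervals too narrow as a statement about the lines.

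NeuroD1 belongs to the proneural basic helix-loop-helix factors, pairs with E-proteins and binds E-box motifs. A group of small cell lung cancers is named for its high expression. H3K4me3 marks the start sites of active genes, so binding away from it is commonly taken for binding at distal elements such as enhancers. Such elements tend to be more cell-type specific than promoters.

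The absence of a counterpart was measured against a longer list. The H524 NeuroD1 list held 20593 regions, while the H3K4me3 lists held 18208 regions in H82 and 18595 in H524. Of the H82 NeuroD1 regions, 46.4% overlapped no H524 NeuroD1 region and 68.4% overlapped no H3K4me3 region of either line. The H82 list therefore falls into 4 classes, namely 1328 H82-only unmarked, 1308 shared unmarked, 460 H82-only marked and 758 shared marked regions. The shared unmarked regions differ from the H82-only unmarked ones in a single part of the rule and serve as the main comparison. Read depth per library is unknown from the files, and more reads lengthen a list. With the H524 NeuroD1 list limited to its 3854 highest scores, 2061 H82 regions would meet the rule.

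H82-only unmarked regions had lower scores and smaller widths than NeuroD1 regions shared with H524. The score deposited by the authors, read as a −log10 adjusted p-value, ran from 1.31 to 62.6 with a median of 3.13 (exact binomial 95% interval of the median 3.05 to 3.26). The medians of the other classes were 4.07 for shared unmarked, 3.16 for H82-only marked and 4.65 for shared marked regions. The H82-only classes, with and without H3K4me3, thus had similar medians, and both shared classes were higher. The middle of the distribution was tight, with quartiles of 2.07 and 4.58 and a 90th percentile of 6.40. A score of 10 or more was reached by 27 H82-only unmarked regions (2.03%), against 303 of all 3854 (7.86%), and a score of 2 or more by 1018 (76.7%), against 82.6% of all.

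Median width was 379 bp (370 to 386), compared with 436 bp (426 to 446) for shared unmarked regions, with a full range of 275 to 1676 bp. Several summits were listed in 48 regions (3.61%, 2.68 to 4.76), below the 5.71% of the whole H82 list. The H82-only marked class had a similar share, 3.91% (2.34 to 6.11). In the shared classes it was 5.73% (4.54 to 7.13) without and 10.4% with H3K4me3. Wider regions meet an overlap of 1 bp more easily, so width is not independent of the rule. Median score had the same order over the 4 classes as median width, so score may not be independent of the rule either, which was not tested.

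The share of H82-only unmarked regions was larger at lower scores, a trend that may depend on region width under the 1 bp rule, which was not tested. With the H82 list ordered by score and divided into 10 classes, they made up 43 of 385 regions in the highest class (11.2%, 8.20 to 14.7). With the H524 NeuroD1 list limited to its 3854 highest scores, the share in this class was 22.1% (18.0 to 26.6). In the full comparison, the next class held 82 of 385 (21.3%), and the ninth held 191 of 385 (49.6%, 44.5 to 54.7). Among unmarked regions alone, the H82-only share ran from 21.9% (16.4 to 28.4) in the highest class to 67.7% (61.9 to 73.2) in the ninth. The share of H82-only regions that were unmarked moved much less. It was 59.7% (47.5 to 71.1) in the highest class and between 69.7% and 79.2% in all others. From class to class, the lack of an H524 counterpart thus varied over a wider range than the lack of H3K4me3.

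**Figure D1:**
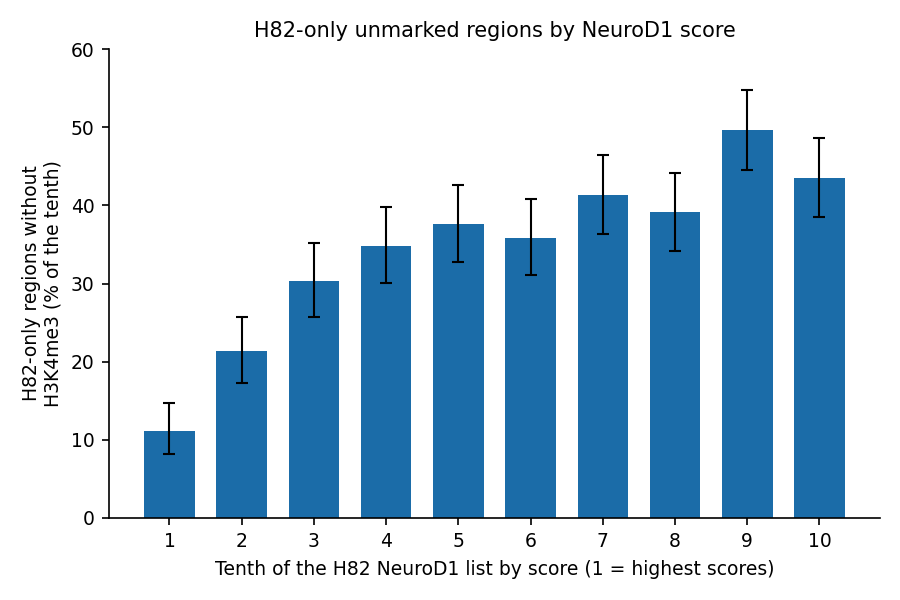
Share of H82-only unmarked regions (y axis, percent) in each of 10 classes of the H82 NeuroD1 list by score (x axis, class 1 holds the highest scores). Bars are shares and whiskers exact Clopper-Pearson 95% intervals, with 11.2% in class 1 and 49.6% in class 9. The full H524 list was used, and with its 3854 highest scores class 1 would hold 22.1%.

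The highest-scoring H82-only unmarked regions were scattered over the genome, with most of them far from any H524 NeuroD1 region. The 20 highest lay on 11 chromosomes, 6 of them on chromosome 1 and 3 on chromosome 8, and scored between 10.8 and 62.6. Of these, 16 had a single summit and 18 lay over 20 kb from the nearest H524 NeuroD1 region, with a median gap of 81.8 kb. Over all 1328 H82-only unmarked regions, 3.61% had several summits. In this whole class 37.4% lay within 20 kb of an H524 NeuroD1 region, with a median gap of 38.4 kb. Of the 100 highest-scoring H82 NeuroD1 regions, 4 met the rule.

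The highest, on chromosome 8 from 97901837 to 97903250, stood apart with 3 summits and a score of 62.6. It began 1.22 kb from an H3K4me3 region of H82, whereas the nearest mark of H524 was 288 kb away and the nearest H524 NeuroD1 region 18.3 kb away. A further region of the 20 lay at lower coordinates, from 97842268 to 97842941, with a score of 13.6. Both were thus near one another in a stretch where H524 listed no H3K4me3 within 200 kb.

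The second highest, on chromosome 3 from 195441518 to 195442466, scored 22.9 and was 56.8 kb from H3K4me3 of H82 and 171 kb from both H3K4me3 and NeuroD1 of H524. The third, on chromosome 17 from 36452850 to 36453183, scored 17.4 and met the rule by only 2 bp, the gap to the adjoining H82 H3K4me3 region. Its nearest H524 mark was 40.1 kb away and its nearest H524 NeuroD1 region 118 kb away. It lay directly beside an H82 mark.

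Several of the others were remote from every other list. The region on chromosome 10 from 120101623 to 120101958 scored 15.2 and lay 253 kb from H3K4me3 of H82, 476 kb from H524 NeuroD1 and 1201 kb from H3K4me3 of H524. The region on chromosome 12 from 20798519 to 20799120 scored 15.0 with gaps of 274, 277 and 506 kb to H82 H3K4me3, H524 H3K4me3 and H524 NeuroD1. On chromosome 14, the region from 22461531 to 22461868 scored 13.3 and lay at least 265 kb from any region of the 3 other lists.

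The 6 regions on chromosome 1 differed among themselves. The region from 201264536 to 201264822 scored 17.1 at a width of 287 bp, 24.8 kb from H524 NeuroD1 and 124 kb from H3K4me3 of both lines. The region from 44265219 to 44265636 scored 14.8 and that from 10313536 to 10314495, with 3 summits, scored 14.1. Both were a little nearer to H3K4me3 of H82 than of H524, with 83.5 against 91.4 kb for the former and 40.9 against 41.6 kb for the latter. The region from 62294884 to 62295713 scored 13.5 and was 1 of the 5 among the 20 that were nearer to the mark of H524, at 86.6 against 104 kb. The remaining regions, from 113340636 to 113341263 and from 22988936 to 22989231, scored 12.7 and 11.6 and were nearer to the mark of H82, at 3.68 and 98.1 kb.

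Near-equal gaps to the marks of both lines were also found on other chromosomes, though not for every region. The region on chromosome 2 from 165747138 to 165747543 scored 10.8 and lay 48.6 kb from H82 and 48.7 kb from H524 H3K4me3, and that from 30677672 to 30678011 scored 10.8 at 6.47 and 7.01 kb. On chromosome 8, the region from 130526668 to 130527109 scored 10.9 and was 423 and 424 kb away. On chromosome 7, the region from 5287788 to 5288207 scored 12.0 at 35.2 kb from H82 and 57.5 kb from H524 H3K4me3. The last of these was clearly nearer to the mark of H82.

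At the opposite end, the region on chromosome 9 from 131850035 to 131850389 scored 10.8 and had all 3 kinds of region within 6.43 kb. The region on chromosome 11 from 125932879 to 125933249 also scored 10.8 and was the only 1 of the 20 within 1 kb of H524 H3K4me3, at 0.181 kb. High score was thus found both at remote sites and beside listed H3K4me3 regions.

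**Figure D2:**
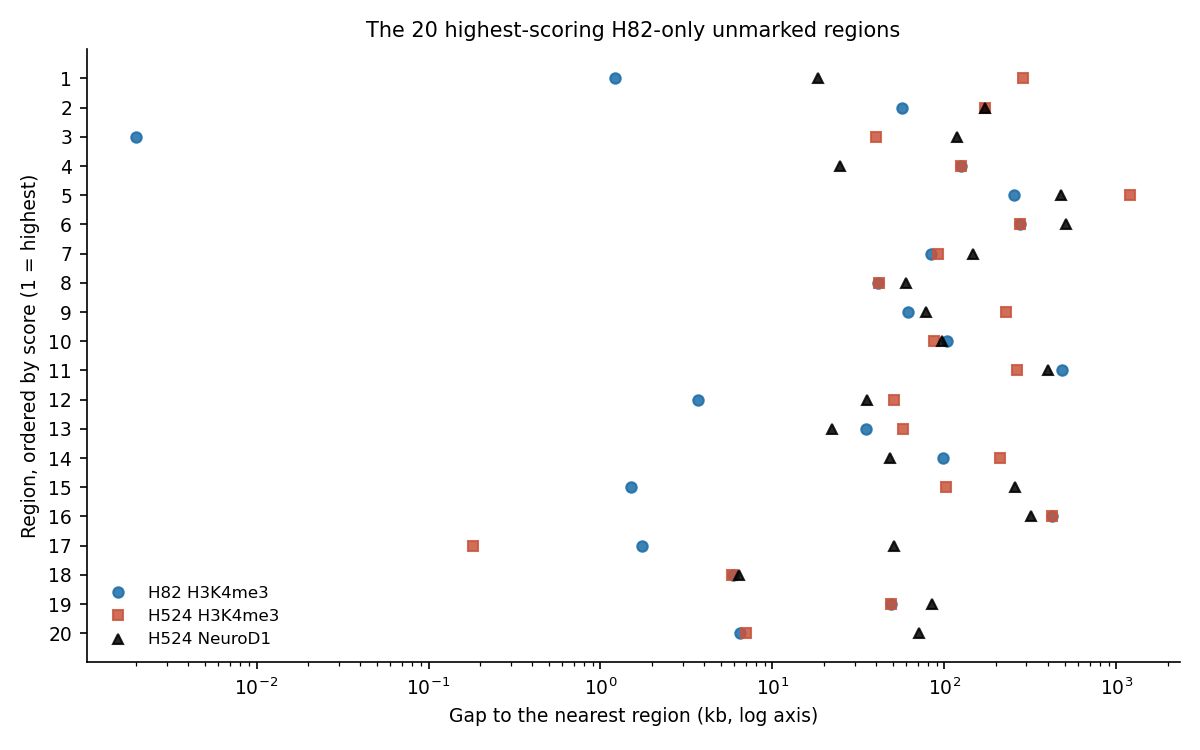
Gap in kb (x axis, log scale) from each of the 20 highest-scoring H82-only unmarked regions (y axis, ordered by score) to the nearest H82 H3K4me3 (circles), H524 H3K4me3 (squares) and H524 NeuroD1 region (triangles). In 15 of the 20 the H82 mark was nearer than the H524 mark, and 18 lay over 20 kb from H524 NeuroD1. Over all 1328 regions the H82 mark was nearer for 69.5%, and 37.4% lay within 20 kb of H524 NeuroD1.

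The weakest and widest regions complete the range. The lowest score, 1.31, belonged to the region on chromosome 17 from 28922676 to 28923045, which lay 4.45 kb from H524 NeuroD1 and 3.69 kb from H82 H3K4me3. The widest was on chromosome 3 from 143845733 to 143847408, 1.68 kb across with 5 summits but a score of only 4.19. Width and score thus did not peak in the same region.

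The rule has a sharp edge of 1 bp, and the number of regions depended on where that edge was set. Inside it, the region on chromosome 18 from 41058954 to 41059342 missed an H524 NeuroD1 region by 2 bp, and the region on chromosome 9 from 128003651 to 128003949 missed an H524 H3K4me3 region by 1 bp. Outside it, the H82 region on chromosome 1 from 33803587 to 33803886 was left out for an overlap of 5 bp with H524 NeuroD1. The one on chromosome 13 from 41345305 to 41345618 was left out for 1 bp of H82 H3K4me3. Within 0.1 kb of a region of the list concerned lay 19 H82-only unmarked regions for H524 NeuroD1, 27 for H82 H3K4me3 and 14 for H524 H3K4me3. When regions within 1 kb counted as overlapping, 1108 regions met the rule. When an overlap had to cover at least as much of the H82 region as it left uncovered, 1638 met it.

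H82-only unmarked regions ranged from the immediate flank of an H524 NeuroD1 region to megabases away. The median gap was 38.4 kb (33.2 to 43.7), with quartiles of 8.17 and 118 kb. Within 1 kb lay 110 regions (8.28%, 6.86 to 9.90), within 10 kb 361 (27.2%) and beyond 500 kb 75 (5.65%). This value depends on the length of the H524 list, and with that list limited to its 3854 highest scores the median gap was 234 kb (213 to 256).

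Shared unmarked regions lay closer to further H524 NeuroD1 regions. Leaving out the region they overlapped, their median gap to the next was 14.6 kb (12.7 to 17.2). Another H524 region was within 50 kb of 75.0% of them and of 56.2% of the H82-only unmarked regions. This puts the H82-only class −18.8 percentage points apart (−22.3 to −15.2 by Newcombe's method). The 2 classes were divided by overlap with this same H524 list, so the contrast is not independent of the rule. Within 1 kb the shares were 9.40% and 8.28%, with an interval of −3.30 to 1.05 points for the difference. Within 0.1 kb they were 0.153% and 1.43%. At such short gaps the classes cannot be compared, because the H524 region left out for the shared class occupies part of their flank.

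Median scores were lowest near H524 regions and highest farthest from them. The 110 regions within 1 kb of H524 NeuroD1 had a median score of 2.50, and the 251 between 1 and 10 kb one of 2.86. Median scores were 3.20 to 3.28 in the 3 groups between 10 and 500 kb and 3.79 in the 75 beyond 500 kb. The remote regions were thus not the weakest ones by median score. These groups were cut by gap to the H524 list that the rule uses, so this order is not independent of the rule.

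The distance to H3K4me3 separated the lines. H82-only unmarked regions lay a median of 46.1 kb (41.7 to 53.6) from H3K4me3 of H82 and 77.1 kb (65.9 to 85.7) from H3K4me3 of H524. The mark of H82 was the nearer for 923 regions (69.5%, 67.0 to 72.0), that of H524 for 403, and 2 were at equal distance. Over all 2636 unmarked H82 regions the percentage was 65.2, and among shared unmarked regions it was 60.9 (58.2 to 63.5). The difference between H82-only and shared unmarked regions was 8.65 points (5.01 to 12.2). With both H3K4me3 lists at 18208 regions the difference was 8.56 points.

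The majority nearer to the mark of H82 was of similar size across scores and gaps. The percentage was 70.7 among H82-only unmarked regions scoring no lower than the median of the H82 list and 68.7 among the rest, against 60.6 and 61.1 for shared unmarked regions. It lay between 67.3 and 73.3 in all 6 groups by gap to H524 NeuroD1. The corresponding class of H524 gave the mirrored result. Among 15154 H524-only unmarked regions, the mark of H524 was nearer for 52.3% (51.5 to 53.1), against 37.7% (35.0 to 40.5) of the shared unmarked regions of that list, a difference of 14.5 points (11.7 to 17.3). In both lines, regions without a counterpart thus had the mark of their own line as the nearer of the 2 marks more often than shared regions did. Shared regions of the 2 NeuroD1 lists overlap one another, and both contrasts use the same H3K4me3 lists, so these contrasts are not independent. Regions without a counterpart were nevertheless farther from the mark of their own line than shared regions, with medians of 46.1 against 33.9 kb in H82 and 65.9 against 50.8 kb in H524.

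Nearby H3K4me3 was less frequent for H82-only than for shared unmarked regions under the marks of both lines. Within 50 kb, 51.2% of H82-only and 57.1% of shared unmarked regions had an H82 mark, which differ by −5.91 points (−9.69 to −2.10), against 54.1% of all unmarked regions. For H3K4me3 of H524 the shares were 40.7% and 52.5%, a difference of −11.8 points (−15.5 to −7.98), with 46.6% in all unmarked regions. Among regions scoring no lower than the median of the H82 list, the difference for the H82 mark was −4.96 points with an interval that included 0 (−10.5 to 0.591), and for the H524 mark −11.8 points (−17.3 to −6.22). Within 1 kb of the H524 mark, the shares were 4.07% (3.07 to 5.27) and 11.6% (9.93 to 13.5). How far the contrast differs between the marks of both lines was not tested beyond the count of which mark was nearer.

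**Figure D3:**
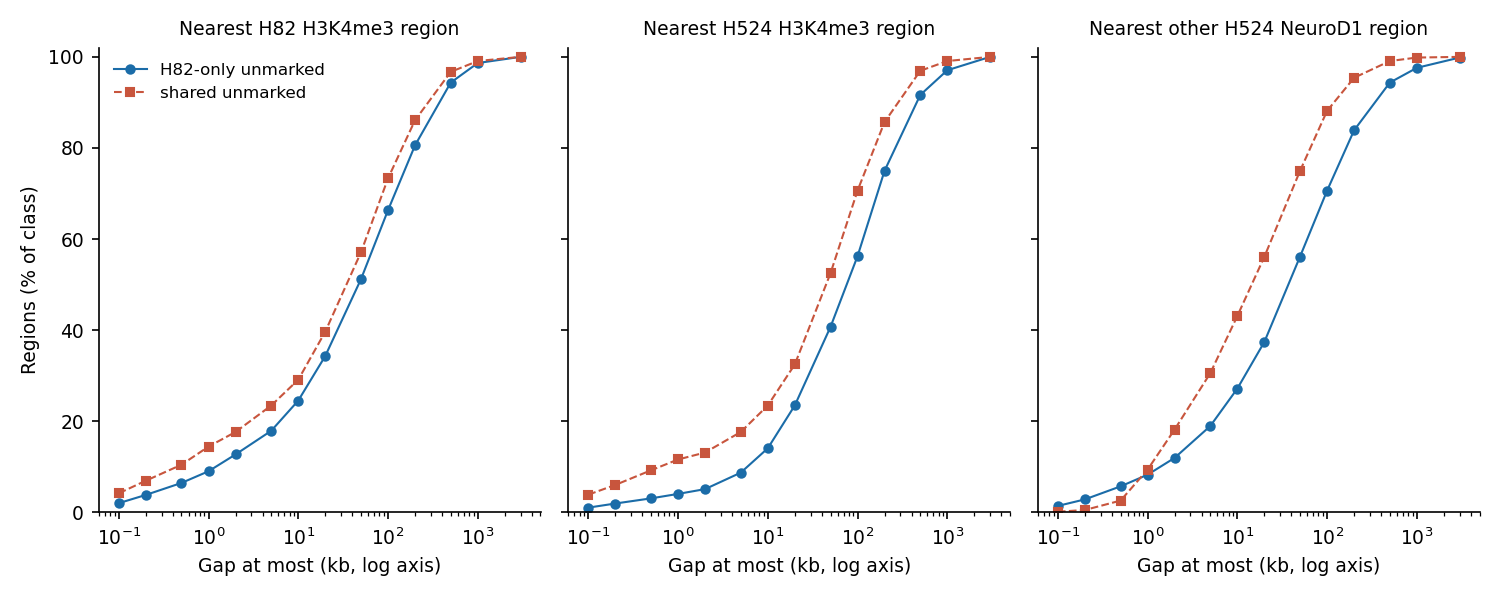
Cumulative percentage of regions (y axis) whose gap to the nearest H82 H3K4me3, H524 H3K4me3 or further H524 NeuroD1 region is at most the value on the x axis (kb, log scale). Circles with solid lines are the 1328 H82-only unmarked and squares with dashed lines the 1308 shared unmarked regions, and at 50 kb the first class differs from the second by −5.91, −11.8 and −18.8 points.

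Some H82-only unmarked regions sat beside a promoter mark that H524 did not list nearby. An H82 mark within 10 kb together with an H524 mark over 50 kb away was found for 104 of them (7.83%, 6.44 to 9.41) and for 68 shared unmarked regions (5.20%, 4.06 to 6.54). This is a difference of 2.63 points (0.747 to 4.54). The reverse arrangement, with the H524 mark near and the H82 mark far, was found for 14 (1.05%) and 30 (2.29%), a difference of −1.24 points (−2.29 to −0.256). Among the 20 highest scores, the regions on chromosome 8 at 97901837, on chromosome 14 from 86503409 to 86504189 and on chromosome 1 from 113340636 to 113341263 belonged to the first kind. At the other extreme, 337 regions (25.4%, 23.1 to 27.8) were over 50 kb from H524 NeuroD1 and from H3K4me3 of both lines, against 19.4% of all unmarked regions. Leaving out the H524 region they overlap, this held for 175 shared unmarked regions (13.4%), a difference of 12.0 points (9.01 to 15.0). This contrast is not independent of the rule, as it uses the H524 NeuroD1 list that divides the classes.

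The H82 promoter marks nearest to these regions were more often in H82 alone. Of all H82 H3K4me3 regions, 47.6% overlapped no H3K4me3 region of H524. Of the 314 H82 H3K4me3 regions that were nearest to an H82-only unmarked region at a gap of up to 10 kb, 212 were in H82 alone (67.5%, 62.0 to 72.7). For shared unmarked regions it was 199 of 367 (54.2%, 49.0 to 59.4), a difference of 13.3 points (5.94 to 20.4). The rule does not use whether a neighbouring mark is shared, but it excludes regions that touch an H524 mark themselves.

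The size of this contrast varied with the gap, which was not tested. Up to 1 kb, 83 of 119 neighbouring H82 marks were in H82 alone (69.7%, 60.7 to 77.8) for H82-only unmarked and 89 of 189 (47.1%, 39.8 to 54.5) for shared unmarked regions, 22.7 points apart (11.4 to 32.9). Between 1 and 10 kb the shares were 67.0% and 61.7%, with an interval of −4.30 to 14.7 points for the difference. From 10 to 50 kb they were 55.5% and 51.2%, with an interval of −3.24 to 11.8 points, and beyond 50 kb the difference was 8.39 points (2.31 to 14.4). When regions within 1 kb counted as overlapping, the difference up to 10 kb was 1.25 points (−8.64 to 11.1). Up to 10 kb, the neighbouring marks had similar median percentiles by score in the H82 H3K4me3 list, 42.7 for H82-only and 42.9 for shared unmarked regions, both below the middle of that list.

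Seen from the H524 side, the neighbouring marks were mostly those present in both lines. Up to 10 kb, 51 of 183 H524 marks nearest to H82-only unmarked regions were in H524 alone (27.9%, 21.5 to 35.0), and 105 of 294 (35.7%, 30.2 to 41.5) of those nearest to shared unmarked regions. The interval of the difference, −16.1 to 0.831 points, included 0. In the whole H524 H3K4me3 list the percentage was 47.1, above both.

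**Figure D4:**
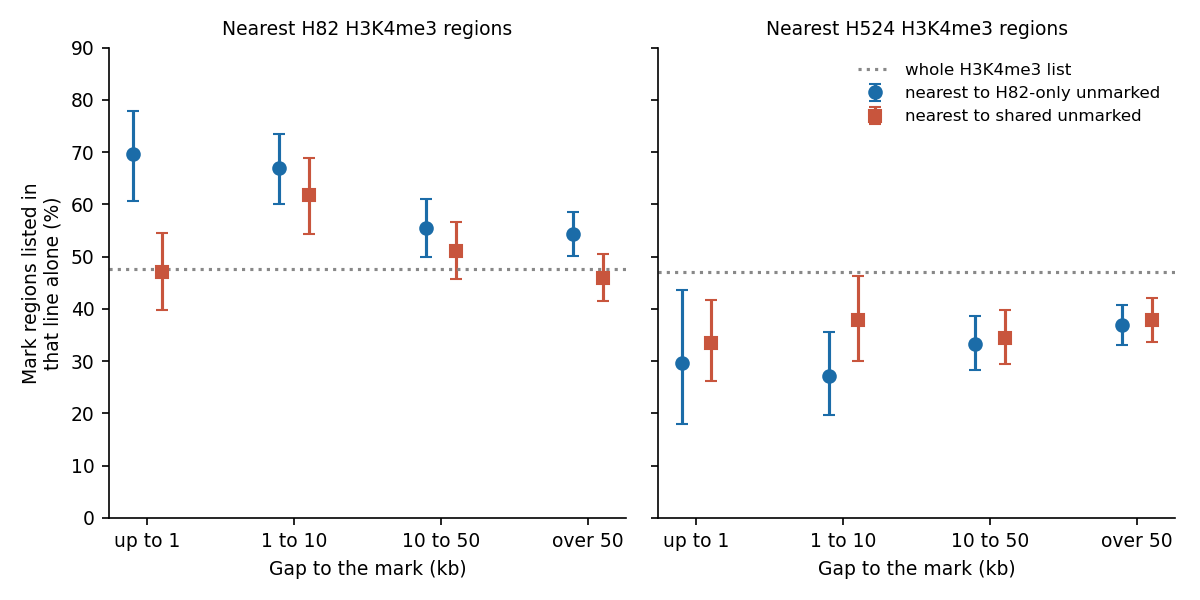
Percentage of the nearest H82 (left) and H524 (right) H3K4me3 regions that overlap no H3K4me3 region of the other line (y axis), by gap in kb (x axis). Circles belong to H82-only and squares to shared unmarked regions, whiskers are exact Clopper-Pearson 95% intervals and the dotted line is the whole list. On the left, up to 1 kb, the values are 69.7% and 47.1%.

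The share of H82-only unmarked regions differed between chromosomes, with chromosome 10 the highest. There, 45 of 69 H82 NeuroD1 regions met the rule (65.2%, 52.8 to 76.3), compared with 33.9% on the other chromosomes, a difference of 31.3 points (19.5 to 41.6). Among the unmarked regions of chromosome 10, 45 of 54 were H82-only (83.3%, 70.7 to 92.1). Chromosome 4 followed, with 42 of 84 (interval 38.9 to 61.1%), and chromosome 1 held the largest number, 231 of 587 (39.4%, 35.4 to 43.4). The lowest shares were on chromosome 19, with 23 of 189 (12.2%, 7.87 to 17.7), and chromosome 22, with 6 of 36 (16.7%, 6.37 to 32.8).

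Chromosome 10 was also thin in H524 under the other antibody. H524 listed 144 H3K4me3 regions there against 550 in H82, a ratio of 0.262, and 141 NeuroD1 regions of its 20593 (0.685%). Of the 45 H82-only unmarked regions of chromosome 10, 16 lay in 1 Mb blocks without any H524 H3K4me3 region and 19 in blocks without any H524 NeuroD1 region. Their median gap was 44.1 kb to H3K4me3 of H82, close to the value over all chromosomes, but 218 kb to H3K4me3 and 418 kb to NeuroD1 of H524. Fewer copies of chromosome 10 in H524 and less binding per copy cannot be told apart in these lists.

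After the region with rank 5 among the 20, the next highest scores on chromosome 10 were below those of the 20 but above the upper quartile of the class, 4.58. The region from 20774678 to 20775325 scored 6.41 and that from 16533935 to 16534774 scored 5.82. The latter was 25.9 kb from H3K4me3 of H82, 772 kb from H3K4me3 and 1104 kb from NeuroD1 of H524. By contrast, the region from 103880991 to 103881584, also at 5.82, was 0.221 kb from H3K4me3 of H82 and 6.32 kb from that of H524. H82-only regions of this chromosome thus occurred both with and without H524 promoter marks nearby.

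Across the 23 chromosomes, the H82-only share of unmarked NeuroD1 regions was lower where H524 listed more H3K4me3 regions relative to H82. Pearson's r between this share and the log2 ratio of H3K4me3 regions was −0.79 and Spearman's rho −0.63. Without chromosome 10 they were −0.68 and −0.58, and without chromosomes 10 and 19 they were −0.62 and −0.52. The correlation is a description, as the points share 4 libraries and the copy number of each line, whose part in it was not tested. Without chromosome 10, the H82 mark was still the nearer for 68.8% of H82-only unmarked regions, 8.08 points (4.40 to 11.7) above the shared unmarked regions.

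**Figure D5:**
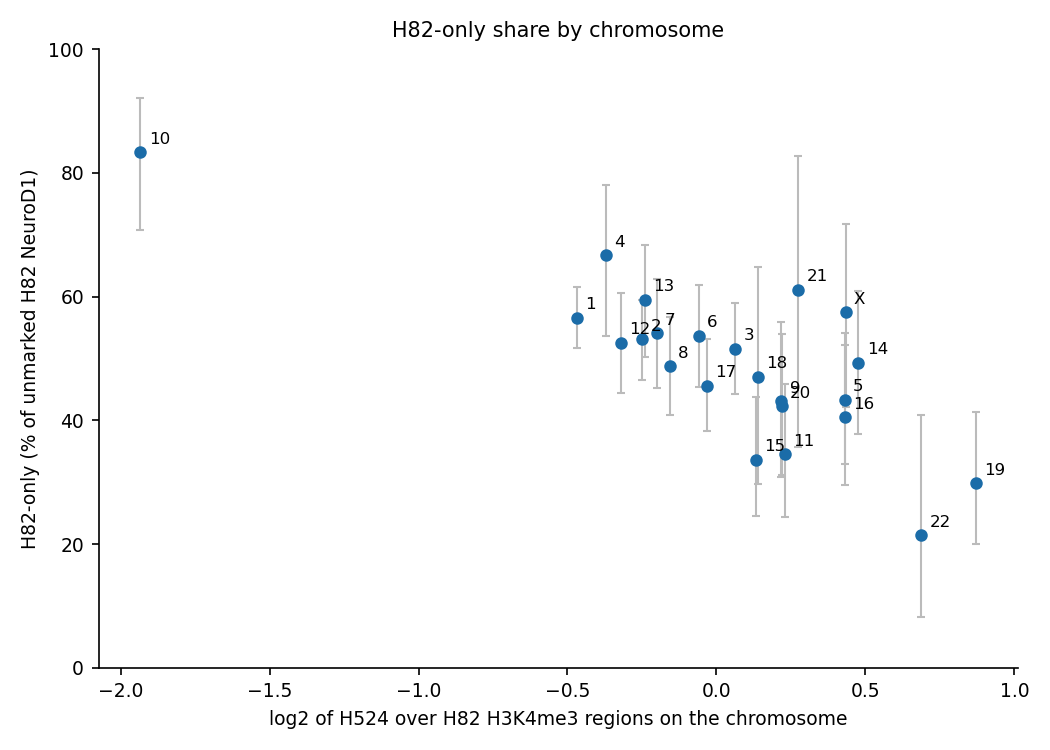
H82-only percentage of the unmarked H82 NeuroD1 regions (y axis) against the log2 ratio of H524 to H82 H3K4me3 regions (x axis) for each of 23 chromosomes, labelled by name. Whiskers are exact Clopper-Pearson 95% intervals, and chromosome 10, with 83.3%, lies far to the left of all others.

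At a finer scale, 62 H82-only unmarked regions (4.67%, 3.60 to 5.95) lay in 1 Mb blocks with H3K4me3 of H82 and none of H524. The same held for 31 shared unmarked regions (2.37%, 1.62 to 3.35), a difference of 2.30 points (0.895 to 3.75). Of the 62 regions, 14 were on chromosome 10, and without that chromosome the difference was 1.74 points (0.451 to 3.08). Blocks with at least 3 H3K4me3 regions of H82 and none of H524 held 23 and 11 regions, a difference of 0.891 points (0.0165 to 1.82). Of the 23, 10 were on chromosome 10, and without it the interval included 0 (0.474 points, −0.233 to 1.24). Blocks with H3K4me3 of both lines held 1180 H82-only unmarked regions (88.9%), against 93.2% of the shared unmarked ones, a difference of −4.34 points (−6.53 to −2.16). Blocks without H3K4me3 of either line held 3.54% and 2.06% (difference 0.209 to 2.78 points). Blocks with the mark of H524 alone held 2.94% and 2.37%, with an interval of −0.682 to 1.83 points for the difference.

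H82-only unmarked regions had neighbours about as often as the whole H82 list. Another H82 NeuroD1 region lay within 12500 bp of 260 of them (19.6%, 17.5 to 21.8), against 21.4% of all H82 NeuroD1 regions. The share was 21.6% for shared unmarked regions, with an interval of −5.07 to 1.11 points for the difference, and 25.7% for H82-only marked regions, from which the H82-only unmarked ones differed by −6.07 points (−10.7 to −1.69). Of the 260, 167 were in groups that also held regions of other classes and 93 in 45 groups of H82-only unmarked regions alone.

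No group held more than 3 of these regions, and 6 groups held 3. The one with the highest-scoring region was on chromosome 17 from 7598697 to 7623930, where 3 H82-only unmarked regions scoring 6.40, 9.69 and 3.26 lay around a shared marked region scoring 18.6. The first and second of these were 960 and 39 bp from H3K4me3 of H82, while H3K4me3 of H524 was at least 44.2 kb from each of the 3. The shared marked region overlapped H3K4me3 of H82 but none of H524. This group thus combined a region listed for NeuroD1 in both lines, and marked in H82 alone, with regions listed for NeuroD1 in H82 alone.

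Groups made up of 3 H82-only unmarked regions and no others were found on chromosomes 14, 2 and 1. The group on chromosome 14, from 86502262 to 86505327, was 3.07 kb long with scores of 3.42, 11.0 and 7.31. It lay 0.371 to 3.07 kb from H3K4me3 of H82, over 100 kb from that of H524 and over 257 kb from H524 NeuroD1. All 5 H82 NeuroD1 regions in this 1 Mb block were H82-only unmarked, whereas H524 listed 4 NeuroD1 regions elsewhere in it. The group on chromosome 2, from 153409461 to 153415120, scored 5.57, 5.35 and 2.75 and lay 119.9 to 163 kb from H3K4me3 of either line. The group on chromosome 1, from 237096612 to 237109912, scored 4.30, 2.15 and 1.91 and lay 33.1 to 44.5 kb from H524 NeuroD1 and at least 95.9 kb from H3K4me3 of either line. A promoter mark was thus close to only 1 of the 3 groups.

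In total, 894 blocks of 1 Mb held an H82-only unmarked region, and in 5 of them all of 4 or more H82 NeuroD1 regions were of this class. On chromosome 17 from 11 to 12 Mb, 5 of 5 were H82-only unmarked, with scores of 1.65 to 2.75. H524 listed no NeuroD1 region in that block and 1 H3K4me3 region, against 7 H3K4me3 regions of H82, and its nearest NeuroD1 region was 756 to 999 kb away. On the same chromosome from 80 to 81 Mb, 4 of 4 were of this class, scoring 6.96, 6.40, 2.50 and 1.73. The blocks with the largest number were of another kind. Chromosome 14 from 57 to 58 Mb held 7 H82-only unmarked regions among 29 H82 and 32 H524 NeuroD1 regions, and from 56 to 57 Mb 6 among 12 and 22. There, H82-only regions lay amid dense NeuroD1 binding of both lines.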

How the data were processed

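NeuroD1 and H3K4me3 peak lists of H82 and H524 were analysed, 1 library each. The scores deposited by the authors were taken as −log10 of an adjusted p-value with a limit of 0.05, since the lowest lie just above 1.30; no header gives their unit. Per the submitters' processing notes, build hg19 and the tools MACS2 2.1.1, Bowtie 1.1.2, Trimmomatic 0.38 and SAMtools 1.9 were used, as were Picard 1.118, bcl2fastq 1.8.4, R 3.5.1 and ChIPseeker 1.18.0. Peak calling settings and the use of input were not given in the sources used here, so mappability and copy number may enter the lists. The input libraries were not analysed here.

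Entries with the same interval were merged, keeping the highest score. Coordinates are 1-based. Gaps run from edge to edge, and overlap means at least 1 shared bp. A mark nearest to several regions was counted once. Score classes broke ties by position. The counting was tested on simulated data and against bedtools 2.31.1, with matplotlib 3.10.9, scipy 1.17.1, numpy 2.4.6 and pandas 2.3.3 in Python 3.11.15. Depth per library is unknown. Regions named are the 20 highest, 5 lowest and 3 widest by rule, of which the most distinct are described, and the largest groups. The regions in member-only groups and blocks, those on chromosome 10, and those at the edge of the rule were chosen after their values were seen. The class and all comparisons were chosen with earlier results of these data known. No hg19 genome or annotation was used here, so the intended gene, gene list and motif analyses were not run and regions carry no gene names.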

Additional observations from a re-analysis of the deposited data

How the results depend on the processing

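No paired analysis was possible because each group has 1 library and the labels give no replicate numbers. Analyses of genes, gene lists and sequence could not be run without hg19. Of 71 recomputed values, 56 stayed within 1.5 times the reported count or within the reported 95% interval, and 15 did not. Only differences of shares could change sign, and none of them did. Limiting H524 NeuroD1 to 3854 regions gave 2061 H82-only unmarked regions, a median width of 390 bp, 22.1% of the highest score class, medians of 64.6 kb to H524 H3K4me3 and 234 kb to H524 NeuroD1, and 78.3% of chromosome 10 regions. Requiring a score of 2 in every list gave medians of 57.1 kb to H82 H3K4me3 and 45.4 kb to H524 NeuroD1, with the H82 mark nearer for 66.3%. Counting regions within 1 kb as overlapping gave medians of 61.1 kb to H82 H3K4me3, 90.1 kb to H524 H3K4me3 and 47.2 kb to H524 NeuroD1, and a difference of 1.25 points in neighbouring marks of H82 alone. At or above the median score, the median gap to H524 NeuroD1 was 46.1 kb. With 5 kb in place of 12500 bp, 12.0% had a neighbour. The setting without chromosome 10 and that of the upper scores were added after the data had been seen. So were equal list lengths and the 1 kb rule for gaps and chromosome shares, and the score of 2 for chromosome shares. Why values moved was not tested.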
